A study of Mus musculus with 10 samples.

Results

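Integrins are adhesion receptors made of an α chain and a β chain, and 10 integrin genes of leukocytes and brain cells were followed here in the hippocampus of DHT-treated female tauopathy mice. The members were the rows of the count table whose Ensembl identifiers map to the symbols Itgam, Itgax, Itgal, Itgb2, Itga4, Itga5, Itga6, Itgb1, Itgav and Itgb5, 10 of the 56884 genes listed. All 10 had enough counts to be tested, among 17622 genes that did. Hippocampi came from 10 ovary-intact female P301S (PS19) mice, which carry human Tau with the P301S mutation under the mouse Prnp promoter. At 6 months of age, 5 females received a subcutaneous SILASTIC implant with 10 mm of DHT, an androgen that aromatase cannot turn into estrogen, and 5 received an empty (void) implant. Treatment lasted 12 weeks, and tissue was collected after perfusion at 9 to 9.5 months. Both groups carry the transgene, and no mice without it entered the comparison. The comparison addresses what a raised androgen level changes in the female tauopathy hippocampus.

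An integrin reaches the cell surface only as a pair of an α and a β chain, and the pair decides which ligand is bound. Itgb2 encodes CD18, the shared β chain of leukocytes, which pairs with CD11b (Itgam), CD11c (Itgax) or CD11a (Itgal) and binds complement fragments and ICAM adhesion molecules. In brain, CD11b is carried by microglia at rest, and CD11c is known from microglia near amyloid plaques and in developing white matter. Itgb1 encodes the most widely shared β chain, the partner of the fibronectin and VCAM1 receptor chain Itga4, the fibronectin receptor chain Itga5 and the laminin receptor chain Itga6. Itgav encodes an α chain that pairs with several β chains, Itgb5 among them, and binds RGD motifs in vitronectin and in latent TGF-β.

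The upstream sequences of 3 members are shown because the genes for CD11b and CD11c lie on the same chromosome and strand and encode partners of the same β chain, yet differed in the size of their change, while Itgb5 was the member with the lowest p. Each is the 250 bases before the gene's start in RefSeq, build GRCm38.p6, written 5′ to 3′ on the gene's strand, which is + for all 3. Of the 10 members, 7 matched an entry of that table; Itgal, Itgb2 and Itga6 did not. Capitals mark matches, on either strand, to the core of the site of PU.1, a factor of myeloid cells, spelled GAGGAA, and to an androgen receptor half-site, spelled AGAACA. A half-site of other nuclear receptors, spelled AGGTCA, was searched too. No matches overlapped.
Itgam (chr7:128062390-128062639): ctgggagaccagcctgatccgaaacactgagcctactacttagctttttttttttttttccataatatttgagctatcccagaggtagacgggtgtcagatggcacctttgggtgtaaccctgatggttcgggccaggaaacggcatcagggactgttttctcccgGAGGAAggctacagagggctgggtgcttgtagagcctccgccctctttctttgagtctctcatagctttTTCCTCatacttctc
Itgax (chr7:128129300-128129549): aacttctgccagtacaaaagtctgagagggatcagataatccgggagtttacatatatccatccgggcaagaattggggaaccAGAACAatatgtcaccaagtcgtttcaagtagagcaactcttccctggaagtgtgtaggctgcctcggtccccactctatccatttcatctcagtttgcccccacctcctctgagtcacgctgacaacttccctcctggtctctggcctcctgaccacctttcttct
Itgb5 (chr16:33829415-33829664): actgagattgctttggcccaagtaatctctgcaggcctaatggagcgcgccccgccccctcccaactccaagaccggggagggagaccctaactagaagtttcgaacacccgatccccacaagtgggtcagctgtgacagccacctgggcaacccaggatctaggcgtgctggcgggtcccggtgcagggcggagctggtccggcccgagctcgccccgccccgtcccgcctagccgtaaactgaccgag
The Itgam window held the PU.1 core 2 times, with first bases at -84 and -15 bases from the gene's start, and no androgen receptor half-site. The Itgax window held 1 androgen receptor half-site, at -167, and no PU.1 core. The Itgb5 window held neither. Over all 32851 RefSeq windows of this length, 23.3% held the PU.1 core, 16.1% the androgen receptor half-site and 14.0% the nuclear receptor half-site. Among the 7 members with a window, 4 held the PU.1 core (Itgam, Itga5, Itgb1 and Itgav), 2 the androgen receptor half-site (Itgax and Itgb1) and 0 the nuclear receptor half-site. For Itga5 alone of the 7, bases shortly after the start were not found in a transcript of an older annotation (GENCODE M21). A match is a description of letters in the window, not of binding.

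Each mouse had between 27188854 and 47113661 counts in total. The neuronal genes Prox1 of dentate granule cells (118 to 211 CPM with void, 134 to 175 with DHT) and Neurod6 of pyramidal cells (189 to 251 and 201 to 267) were present in every sample. CPM values are counts scaled to a common library size after TMM normalization, which corrects for differences in library composition. Each sample label holds an S number, which was lower for every void library than for every DHT library. Whether this number reflects a processing order is not stated, and any such order cannot be told apart from the treatment. Markers of choroid plexus, a tissue next to the hippocampus, summed to 360 to 3283 CPM with void and to 3954 to 5832 with DHT, with void replicate 9 the highest of its group, and the log2 fold change was positive for each of the 12. Markers of microglia summed to 625 to 737 CPM with void and 881 to 1338 with DHT. In a bulk sample, fewer cells of a type and less RNA per cell cannot be told apart.

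In DHT-treated females, 3 of the 10 integrin genes rose and 0 fell. Itgax rose most, from 1.37 to 13.4 CPM, followed by its partner Itgb2, from 7.59 to 16.3 CPM, and by Itgb5, from 49.0 to 78.2 CPM. A gene was called where the quasi-likelihood test of edgeR gave an adjusted p under 0.05 (Benjamini-Hochberg, over all genes tested). At this limit 5.22% of all genes tested were higher and 0.261% were lower (920 and 46 genes). With a log2 fold change over 1 as a further limit, 2 of the 10 members (Itgax and Itgb2) and 2.17% of all genes were higher. Every DHT-treated mouse was above every void-treated mouse for 5 of the 10 members (Itgam, Itgax, Itgb2, Itgb1 and Itgb5) and for 5.39% of all genes. Every DHT-treated mouse was below for 0 members and for 0.88% of all genes. The log2 fold change was positive for 9 of the 10 members, with a median of 0.45 over the members and of 0.01 over all genes tested. Without DHT replicate 2 the number of members higher was 5, with Itgam and Itga5 added, and without DHT replicate 1 only Itgax kept a log2 fold change over 1 among the called members. The number of all genes higher was 351 without void replicate 11, 395 without DHT replicate 1, 493 without void replicate 4, 518 without DHT replicate 3 and 552 without void replicate 10. With the choroid plexus markers as a covariate, 0 members and 0 genes of any kind passed, and the log2 fold changes of Itgax, Itgb2 and Itgb5 in that fit were 4.19, 1.16 and 0.42. The summed markers did not overlap between the groups, so that fit can hardly separate them from the treatment. Missing the limit there is therefore not evidence that a gene did not change. DESeq2 called 4 members higher, the fourth being Itgam, and 1221 genes higher against 224 lower.

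**Figure D1:**
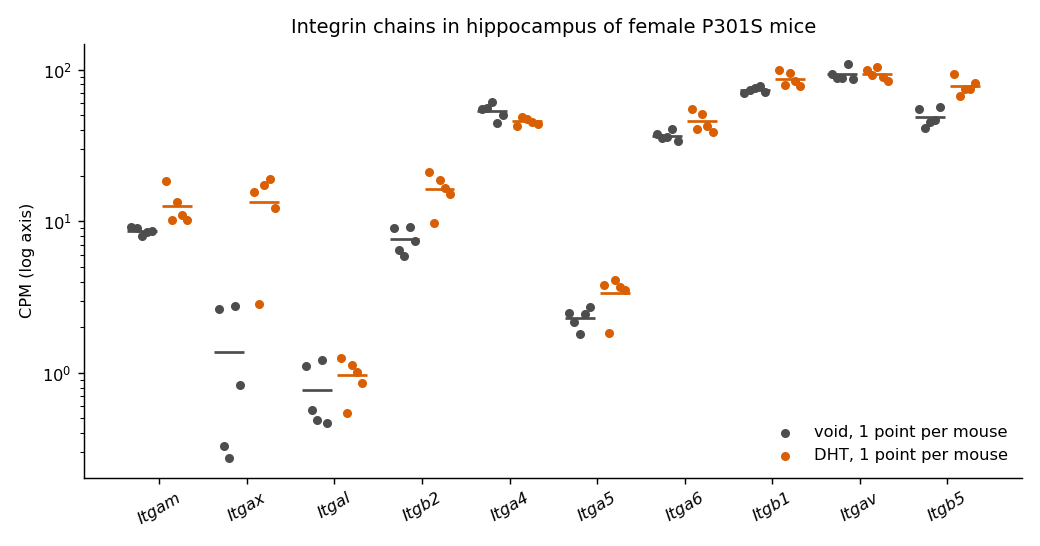
Level of each of the 10 integrin genes in every mouse, in CPM on a log axis, with void-treated and DHT-treated mice side by side (points are mice, bars are group means). For Itgax the 5 void-treated mice lie between 0.275 and 2.75 CPM and the 5 DHT-treated mice between 2.84 and 18.9, while for Itgav the groups overlap over most of their range.

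**Figure D2:**
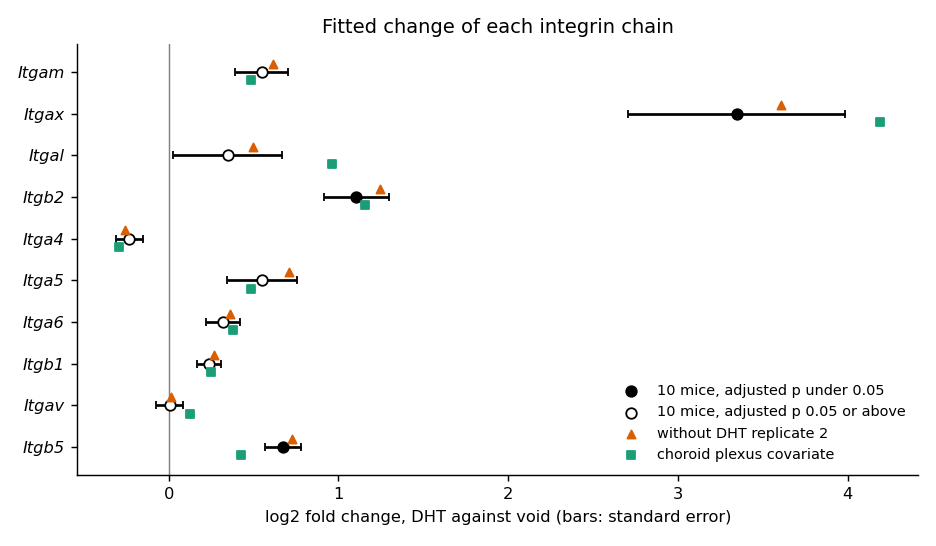
Log2 fold change (DHT against void) of each integrin gene from edgeR, with circles for all 10 mice (filled at an adjusted p under 0.05, bars are the standard error), triangles for the fit without DHT replicate 2 and squares for the fit with the choroid plexus covariate. Itgax (3.35), Itgb2 (1.10) and Itgb5 (0.67) have filled circles, and the square of Itgb5 lies at 0.42.

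Itgax, the α chain of CD11c/CD18, was at 2.66, 0.330, 0.275, 2.75 and 0.838 CPM in void replicates 10, 11, 4, 5 and 9 and at 15.6, 2.84, 17.3, 18.9 and 12.2 CPM in DHT replicates 1, 2, 3, 5 and 6. The groups did not overlap, but DHT replicate 2 was close to the highest void-treated mice, and the void-treated mice themselves fell into 2 mice near 2.7 and 3 mice under 1. Mean levels were 1.37 ± 1.24 CPM in void-treated and 13.4 ± 6.4 CPM in DHT-treated females (SD, n = 5 each), a 9.78-fold higher mean. Its log2 fold change, given here with its standard error (SE), was 3.35 (SE 0.64, edgeR adjusted p = 0.0127). The void-treated mice had 11 to 86 raw counts of Itgax and the DHT-treated mice 115 to 828, so counting error is a larger share of the void values. Leaving out 1 mouse at a time gave values between 3.04 and 3.81, past the limit in 10 of 10 fits. Void replicate 9, the void-treated mouse with the highest sum of choroid plexus markers, was at 0.838 CPM of Itgax.

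Itgb2, the CD18 chain that Itgax, Itgam and Itgal share, was at 8.97, 6.47, 5.94, 9.14 and 7.41 CPM in the void-treated mice and at 21.1, 9.80, 18.7, 16.5 and 15.2 CPM in the DHT-treated mice, in the same order of replicates. Again no mouse overlapped, and DHT replicate 2 was the lowest of its group. Mean levels were 7.59 ± 1.44 CPM in void-treated and 16.3 ± 4.26 CPM in DHT-treated females (SD, n = 5 each), a 2.14-fold higher mean. This was a log2 fold change of 1.10 (SE 0.19, edgeR adjusted p = 0.00990), which lay between 0.96 and 1.24 with 1 mouse left out.

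Itgam, the CD11b chain by which microglia are commonly labelled, was at 9.15, 8.96, 7.99, 8.47 and 8.56 CPM with void and at 18.4, 10.2, 13.3, 10.98 and 10.1 CPM with DHT, in the same order. Every DHT-treated mouse was above every void-treated mouse, and DHT replicate 1 was far above the others. On the log2 scale the change was 0.55 (SE 0.16), and the adjusted p of 0.0658 in edgeR missed the limit. DESeq2 gave a log2 fold change of 0.52 with an adjusted p of 0.0250, and edgeR passed Itgam without DHT replicate 2 (adjusted p = 0.0435) and without DHT replicate 6 (adjusted p = 0.0490). Without DHT replicate 1 the log2 fold change was 0.34. In an older annotation (GENCODE M21), 68.67% of the exon bases of Itgam are shared on the same strand with Gm49368, which had 0 counts in the table.

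Itgal, the CD11a chain of LFA-1, an integrin of lymphocytes and other blood leukocytes, was near the limit of detection at 15 to 54 raw counts per mouse. Its values were 1.11, 0.569, 0.486, 1.21 and 0.465 CPM with void and 1.26, 0.543, 1.13, 1.02 and 0.863 CPM with DHT. The groups overlapped, and the log2 fold change of 0.35 had a SE of 0.32 (adjusted p = 0.666, edgeR). Itgad (3 to 17 counts per mouse) and Itgae (5 to 17), further α chains of leukocytes, had too few counts to be tested.

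The chains that share CD18 did not change by the same amount, as the log2 ratio of 2 chains within each mouse shows. Such a ratio does not depend on the scaling between libraries, and 9 ratios of chains were compared by two-sided exact permutation tests with Benjamini-Hochberg adjustment over the 9. The log2 ratio of Itgax to Itgam was -3.16 ± 1.45 in void-treated and -0.13 ± 1.01 in DHT-treated females (SD, n = 5 each), a difference of 3.03 (exact p = 0.0238, adjusted p = 0.0306), with DHT replicate 2 inside the range of the void-treated mice. Relative to Itgb2, Itgax was higher by 2.47 (exact p = 0.0238, adjusted p = 0.0306), again with DHT replicate 2 inside the void range. Itgam relative to Itgb2 was lower with DHT by a difference of -0.56 (exact p = 0.0238, adjusted p = 0.0306), with DHT replicate 2 inside the void range. Itgal relative to Itgb2 was lower too, by a difference of -0.71 (exact p = 0.00794, adjusted p = 0.0238), and here every DHT-treated mouse was below every void-treated mouse. The value of 0.00794 is the smallest that 5 mice against 5 allow.

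Put per kilobase of gene model, the transcripts of the 3 α chains that pair with CD18 shifted from a pool that was mostly Itgam to one of nearly equal Itgam and Itgax. With void, Itgam made up 71.6, 92.0, 92.4, 69.0 and 87.4% of the summed CPM per kilobase of Itgam, Itgax and Itgal, and with DHT 51.5, 75.0, 41.2, 34.8 and 43.0%. Itgax made up 21.8, 3.54, 3.32, 23.4 and 8.95% with void and 45.8, 21.9, 56.1, 62.7 and 54.2% with DHT. DHT replicate 2 was the exception in its group and lay inside the range of the void-treated mice in both shares. Itgal was at 5.32 ± 1.69% in void-treated and 2.74 ± 0.218% in DHT-treated females (SD, n = 5 each). Over the groups, the mean share of Itgam was 82.5 ± 11.3% with void against 49.1 ± 15.7% with DHT, and that of Itgax 12.2 ± 9.77% against 48.1 ± 15.9% (SD, n = 5 each). These shares describe transcripts, not receptors on a cell surface. They also rest on the full exon length of Itgam, of which 68.67% is shared with Gm49368 in GENCODE M21. How reads matching both genes were counted is not known, and if they were dropped the Itgam share is too low in both groups.

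**Figure D3:**
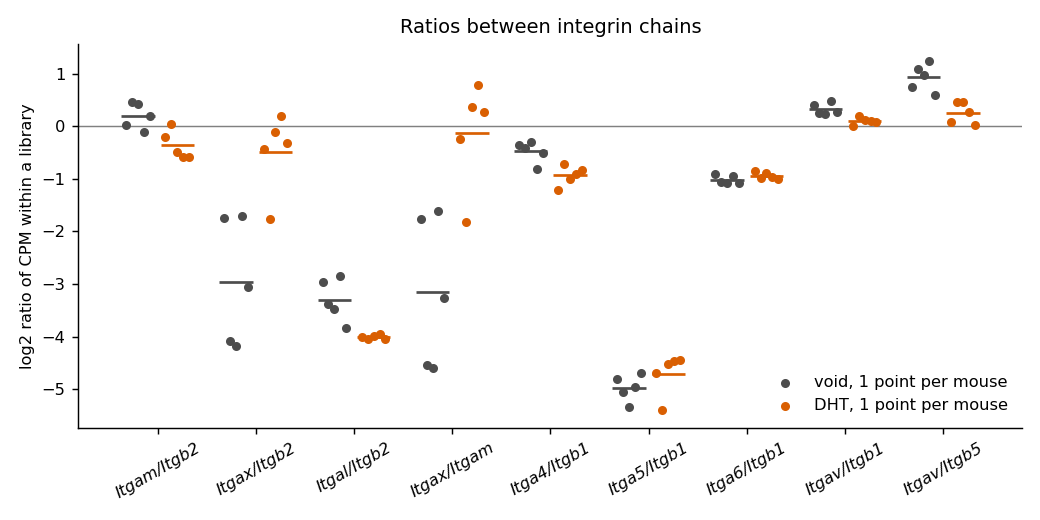
Log2 ratio of CPM of 2 integrin chains within each mouse, for the 9 ratios compared, with void-treated and DHT-treated mice as points and group means as bars. The ratio of Itgax to Itgam moves from a mean of -3.16 to -0.13, and all 5 DHT-treated mice lie below all 5 void-treated mice for Itgal to Itgb2, Itgav to Itgb1 and Itgav to Itgb5.

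Relative to microglia markers, Itgax and Itgb2 were higher with DHT, and for Itgam the difference was small. The mean log2 CPM of 17 microglia markers was subtracted from that of each member in each mouse, and the 10 differences between groups were adjusted together. For Itgax the difference was 2.94 (two-sided exact permutation test, p = 0.0238, adjusted p = 0.0397), and for Itgb2 0.47 (exact p = 0.0238, adjusted p = 0.0397). In both, DHT replicate 2 lay inside the range of the void-treated mice. For Itgam the difference was -0.10 (exact p = 0.333, adjusted p = 0.459) and for Itgal -0.24 (exact p = 0.413, adjusted p = 0.459). The microglia markers themselves had a median log2 fold change of 0.55, from 0.16 for P2ry12 to 1.30 for C1qa, and 9 of 17 rose. Over all genes tested 5.22% were higher and 0.261% lower, the shares to set beside this count and those that follow. Other cells can carry CD18 as well. Of their markers, 0 of 10 neutrophil markers had enough counts to be tested (summed 0.279 to 1.14 CPM with void, 0.197 to 1.04 with DHT), and 0 of 4 monocyte markers tested (of 8 listed) and 0 of 6 border macrophage markers tested (of 7) were called. Of 13 T and NK cell markers 1 could be tested and was not called, but their sum was 1.22 to 1.95 CPM with void and 2.27 to 3.56 with DHT. Of 8 dendritic cell markers 5 were tested and 1 fell, and their sum was 19.01 to 21.4 CPM with void and 14.7 to 18.04 with DHT. None of the markers in these lists was at 0 in every mouse. The part of these cells in the integrin values was not tested.

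**Figure D4:**
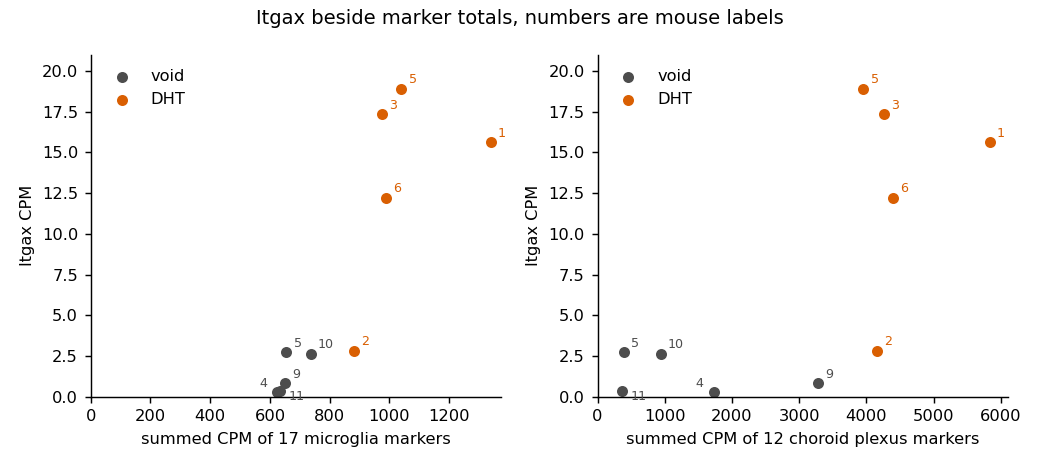
Itgax in CPM, on linear axes, against the summed CPM of 17 microglia markers and of 12 choroid plexus markers, each point a mouse with its replicate number, coloured by group. DHT replicate 2 has the lowest Itgax (2.84 CPM) and the lowest microglia sum (881 CPM) of its group, and void replicate 9 has 3283 CPM of choroid plexus markers with 0.838 CPM of Itgax.

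Itgb1, the shared β chain of fibronectin, laminin and VCAM1 receptors, was at 70.6, 73.7, 75.2, 78.4 and 71.6 CPM in void replicates 10, 11, 4, 5 and 9 and at 99.0, 79.7, 94.7, 83.6 and 78.4 CPM in DHT replicates 1, 2, 3, 5 and 6. The groups met without overlapping at 78.4 CPM, between void replicate 5 and DHT replicate 6. This amounted to a log2 fold change of 0.24 (SE 0.07) with an adjusted p of 0.0854 in edgeR.

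Itga4, a receptor chain for fibronectin and VCAM1, was the one member with a negative log2 fold change. It was at 55.3, 55.8, 61.4, 44.7 and 50.2 CPM with void and at 42.7, 48.6, 47.5, 44.8 and 44.0 CPM with DHT. Most void-treated mice were above all DHT-treated mice, but void replicate 5 lay among them. Its change was -0.23 on the log2 scale (SE 0.08, edgeR adjusted p = 0.138), and without void replicate 5 it was -0.29 with an adjusted p of 0.0439. In GENCODE M21, 8.04% of the exon bases of Itga4 overlap Cerkl on the opposite strand, which had 1618 counts over all mice against 18056 for Itga4, and without a stated strand setting the reads there cannot be told apart.

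Itga5, the classical fibronectin receptor chain, was low, at 2.47, 2.16, 1.80, 2.46 and 2.7 CPM with void and 3.77, 1.83, 4.08, 3.71 and 3.54 CPM with DHT. DHT replicates 1, 3, 5 and 6 were above all void-treated mice, and DHT replicate 2 was among the lowest of all 10. Over all mice the log2 fold change was 0.55 (SE 0.21, edgeR adjusted p = 0.172), and without DHT replicate 2 it was 0.71 with an adjusted p of 0.0142.

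Itga6, a laminin receptor chain, was at 37.5, 35.5, 35.7, 40.7 and 33.8 CPM with void and at 55.1, 40.5, 51.3, 42.6 and 39.1 CPM with DHT. The groups overlapped only through void replicate 5 and DHT replicates 2 and 6. Itga6 had a log2 fold change of 0.32 (SE 0.10), with an adjusted p of 0.0921 in edgeR.

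Within each mouse, Itga4 was lower relative to its partner Itgb1 with DHT. The log2 ratio of Itga4 to Itgb1 was -0.47 ± 0.20 in void-treated and -0.93 ± 0.19 in DHT-treated females (SD, n = 5 each), a difference of -0.46 (two-sided exact permutation test, p = 0.0159, adjusted p = 0.0306). DHT replicate 2 lay inside the range of the void-treated mice. For Itga6 the difference in the log2 ratio to Itgb1 was 0.08 (exact p = 0.135, adjusted p = 0.152). For Itga5 the difference was 0.27 (exact p = 0.254, adjusted p = 0.254), and without DHT replicate 2 it was 0.44 (exact p = 0.0159, the smallest that 5 mice against 4 allow).

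Itgb5, a β chain for Itgav and a vitronectin receptor, was at 55.2, 41.4, 45.2, 46.4 and 56.9 CPM in the void-treated mice and at 92.9, 67.1, 74.6, 74.3 and 82.0 CPM in the DHT-treated mice. The groups were well apart, and DHT replicate 2 was again the lowest of the DHT-treated mice. Mean levels were 49.0 ± 6.69 CPM in void-treated and 78.2 ± 9.78 CPM in DHT-treated females (SD, n = 5 each), a 1.60-fold higher mean. Its log2 fold change of 0.67 (SE 0.11, edgeR adjusted p = 0.00761), rank 78 by p among all genes tested, lay between 0.57 and 0.73 with 1 mouse left out. Void replicates 9 and 10 had the highest Itgb5 of their group, and void replicate 9 had the highest and void replicate 10 the third highest sum of choroid plexus markers. Void replicate 4, between them with 1727 CPM of those markers, was at 45.2 CPM of Itgb5, and void replicate 5, with 389 CPM, at 46.4 CPM. With those markers as a covariate the log2 fold change was 0.42, and the adjusted p was 0.616. Relative to microglia markers Itgb5 differed by 0.07 (exact p = 0.381, adjusted p = 0.459). Without void replicate 9 this difference was 0.13 (exact p = 0.0476, without adjustment). Of the 10 tests with 1 mouse left out, only that 1 was under 0.05.

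Its α chain partner Itgav, by contrast, was at 93.4, 88.1, 88.6, 109 and 86.7 CPM with void and at 99.0, 92.0, 104, 90.0 and 83.6 CPM with DHT. The groups overlapped over most of their range. Its log2 fold change of 0.01 (SE 0.08, edgeR adjusted p = 0.984) had a sign that depended on the scaling, since DESeq2 size factors gave -0.02. The log2 ratio of Itgav to Itgb5 fell from 0.93 ± 0.25 to 0.27 ± 0.20, and that of Itgav to Itgb1 from 0.33 ± 0.11 to 0.11 ± 0.07 (SD, n = 5 each). For both ratios every DHT-treated mouse was below every void-treated mouse (two-sided exact permutation tests, p = 0.00794 each, adjusted p = 0.0238). Relative to microglia markers, Itga4, Itgav, Itgb1 and Itga6 were lower with DHT, by differences of -0.83 (exact p = 0.00794), -0.60 (exact p = 0.00794), -0.37 (exact p = 0.0159) and -0.30 (exact p = 0.0238), with an adjusted p of 0.0397 for each. DHT replicate 3 lay inside the void range for Itgb1 and for Itga6. With the median in place of the mean over the markers, the exact p was 0.0794 for Itgb1 and 0.206 for Itga6. For Itga5 the difference was -0.11 (exact p = 0.603, adjusted p = 0.603).

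The chains that pair with Itgb1 or Itgav are carried by vessel, glial and nerve cells as well as by microglia. Calls among markers of those cells stand beside 5.22% higher and 0.261% lower over all genes tested. At these shares, 0 called in a list of 8 or 10 genes does not show that the cells were unchanged. Of endothelial markers 0 of 10 were called, with sums of 322 to 422 CPM in void-treated and 352 to 401 CPM in DHT-treated mice, and of mural cell markers 0 of 8. Of astrocyte markers 1 of 8 rose, Gfap, by 1.18 on the log2 scale, and of oligodendrocyte and neuron markers 0 of 8 and 0 of 10 were called. Of 12 choroid plexus markers 5 rose, with a median log2 fold change of 2.11, and 1 of 6 ependymal and 1 of 8 meningeal fibroblast markers rose. Their part in the values of Itgb5 and Itgb1 was not tested beyond the covariate.

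Levels of different genes can be set side by side only per length. In CPM per kilobase of exon in GENCODE M21, an annotation older than that of the counts, the order with void was Itgb1 (18.1), Itgb5 (13.8), Itgav (8.68), Itga6 (4.06), Itga4 (3.82), Itgb2 (2.49), Itgam (1.72), Itga5 (0.470), Itgax (0.285) and Itgal (0.117). The ranges over the void-treated mice overlapped between Itga6 and Itga4, between Itga5 and Itgax, and between Itgax and Itgal, so these neighbours in the order did not differ beyond their spread. With DHT the order was Itgb5 (22), Itgb1 (21.3), Itgav (8.71), Itgb2 (5.33), Itga6 (5.07), Itga4 (3.26), Itgax (2.79), Itgam (2.51), Itga5 (0.687) and Itgal (0.146). Itgax thus stood next to Itgam in DHT-treated females, with ranges of 0.591 to 3.94 and 2.01 to 3.66 CPM per kilobase, whereas with void it stood below Itga5. The place of Itgam in both orders would be too low if reads shared with Gm49368, over 68.67% of its exon bases, were dropped. The ranges of Itgb5 and Itgb1, of Itgb2 and Itga6, and of Itga4 and Itgax overlapped with DHT too.

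Of 16 other integrin chains 14 were tested, 1 was called higher and 0 lower, beside 5.22% higher and 0.261% lower over all genes tested. Their median log2 fold change was 0.30. The one called was Itgb6, an epithelial β chain that pairs with Itgav, with means of 0.132 ± 0.109 CPM in void-treated and 0.559 ± 0.220 CPM in DHT-treated females (SD, n = 5 each) and 1 to 40 raw counts per mouse. It changed by 2.06 on the log2 scale (SE 0.46, edgeR adjusted p = 0.0235), and it missed the limit without void replicate 10, 11, 4 or 5 or DHT replicate 1 or 3, with adjusted p values of 0.0544 to 0.0669. With the choroid plexus covariate its log2 fold change was 0.70. The other partners of Itgav were not called: Itgb8, which activates latent TGF-β, had a log2 fold change of 0.33 (adjusted p = 0.0812, edgeR), and Itgb3, known from platelets and endothelium, of 0.26 (adjusted p = 0.242). The laminin receptor chains Itga3, Itga7 and Itgb4 had log2 fold changes of 0.34, 0.32 and 0.31 (adjusted p = 0.403, 0.120 and 0.477), and with the choroid plexus covariate those of Itga3 and Itgb4 were -0.01 and -0.20. The collagen receptor chains Itga1, Itga2, Itga10 and Itga11 were at 0.08, 0.68, 0.10 and -0.30 (adjusted p = 0.894, 0.311, 0.908 and 0.363). Itga8, Itga9, Itga2b and the leukocyte chain Itgb7 were at -0.09, 0.13, 0.28 and 0.64 (adjusted p = 0.753, 0.642, 0.608 and 0.270).

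Among ligands of integrins, 8 of 42 tested (47 listed) rose and 0 fell, where 5.22% of all genes tested were higher and 0.261% lower, and the median log2 fold change was 0.05. Of the cell surface ligands 3 of 11 rose. Icam1, which binds CD18 integrins, rose by 1.01 in log2 CPM (SE 0.20, edgeR adjusted p = 0.0133). F11r, a junction molecule that binds LFA-1, was at 0.90 (SE 0.16, adjusted p = 0.00980), and Vcam1, the ligand of Itga4 with Itgb1, was at 0.72 (SE 0.14, adjusted p = 0.0122). C3, whose cleavage fragment is bound by CD11b/CD18 and CD11c/CD18, rose by 1.53 (SE 0.33, edgeR adjusted p = 0.0205). Of 25 matrix ligands tested, the laminin chain Lama5 (0.86, adjusted p = 0.0120) and Thbs1 (0.83, adjusted p = 0.0321) rose. Of 5 genes of latent TGF-β, which Itgav integrins bind, Tgfb1 itself (0.63, adjusted p = 0.0388) and the latent TGF-β binding protein Ltbp3 (0.61, adjusted p = 0.0212) rose. With 1 mouse left out, F11r, Lama5, Vcam1 and Icam1 passed in 10 of 10 fits, C3 in 6, Ltbp3 and Thbs1 in 4 each and Tgfb1 in 2. C3 missed the limit without void replicate 10 or 4 or DHT replicate 1 or 3 (adjusted p up to 0.0585). Ltbp3 missed it without void replicate 10, 11, 4 or 5 or DHT replicate 1 or 5 (up to 0.0756), and Thbs1 without void replicate 11, 4 or 5 or DHT replicate 1, 3 or 6 (up to 0.110). Tgfb1 passed only without DHT replicate 2 or 3, with adjusted p values up to 0.127 in the other fits, and missed the limit with limma-voom too (adjusted p = 0.0654). The count of 8 was 4 without DHT replicate 1 or void replicate 4 and 5 without void replicate 5, 10 or 11.

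Of 55 genes that link integrins to the cytoskeleton or signal from them, all were tested, 13 rose and 0 fell, again beside 5.22% higher and 0.261% lower over all genes tested, with a median log2 fold change of 0.15. Of those with the lowest p, 7 are given here. Of 8 kinases 3 rose, among them the myeloid kinases Fgr, by 3.0 on the log2 scale (SE 0.48, edgeR adjusted p = 0.00761), and Lyn, by 0.60 (SE 0.12, adjusted p = 0.0148). Fgr had 3 to 14 raw counts per mouse with void and 21 to 116 with DHT. Of 11 genes of the route to Rac 3 rose, among them Rac2 (1.11, adjusted p = 0.00761), the Rac of blood cells, and its exchange factor Dock2 (0.95, adjusted p = 0.00761). Of 16 genes of integrin activation 4 rose, among them the leukocyte adaptor Fyb (0.90, adjusted p = 0.0156). Of 6 listed as inhibitors 2 rose, among them Mdfic (1.58, adjusted p = 0.00683), for which an action on integrins was not tested. Of 14 adhesion complex genes 1 rose, Tns1, which encodes tensin 1 (0.63, adjusted p = 0.00670). The count of 13 was 6 without void replicate 11, where Lyn (adjusted p = 0.0627) and Fyb (adjusted p = 0.0615) were among those that missed the limit. Lyn also missed it without DHT replicate 3 (adjusted p = 0.0504). With the choroid plexus covariate 0 genes of these 3 lists passed. Among the ligands and adaptors named, the log2 fold change was more than 1.5 times smaller in that fit for F11r (0.52), C3 (0.76), Ltbp3 (0.30), Thbs1 (0.56) and Mdfic (0.86), and it was 3.97 for Fgr, 1.14 for Rac2 and 1.16 for Icam1.

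**Figure D5:**
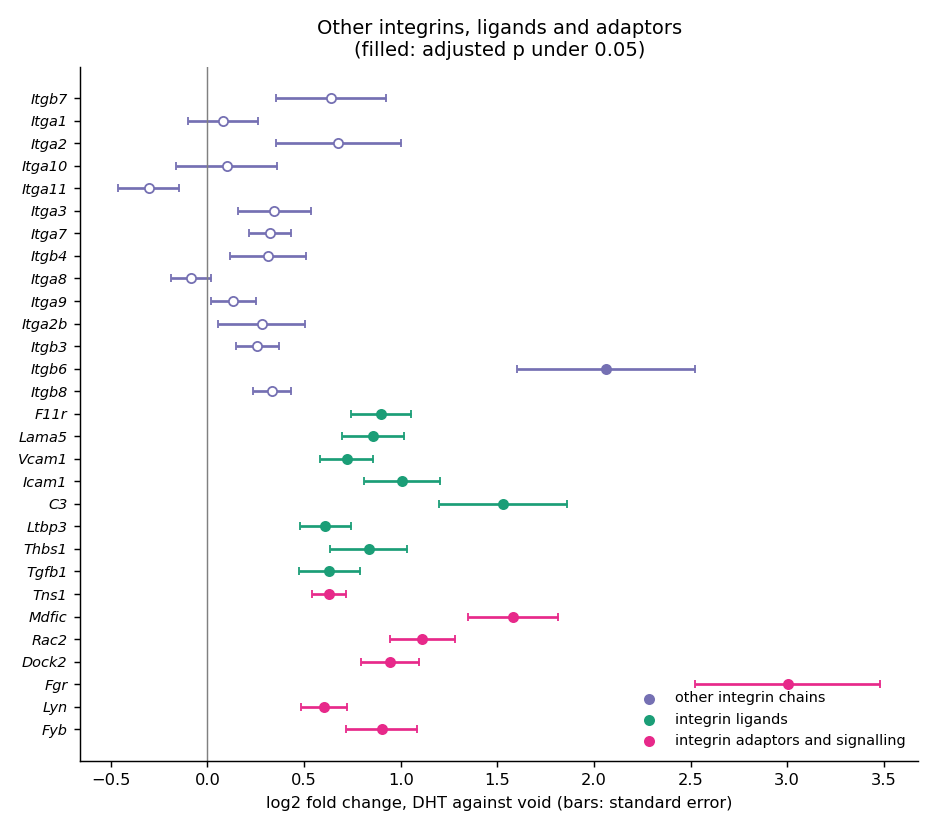
Log2 fold change (DHT against void, edgeR) with its standard error for the 14 other integrin chains tested and for the 8 ligands and 7 adaptor and signalling genes named in the text, coloured by list and filled at an adjusted p under 0.05. Of the integrin chains Itgb6 (2.06) alone is filled, while the ligands and adaptors drawn were chosen because they passed the test and lie between 0.60 (Lyn) and 3.0 (Fgr).

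The genes whose profiles over the 10 mice were most like that of Itgax were Cst7, Clec7a, Cxcl10, Cd74 and Cybb. Likeness was the root mean square distance between log2 CPM values centred on each gene's mean, and it was 0.33, 0.56, 0.74, 0.79 and 0.79. Most like Itgam were Apbb1ip, Tnfrsf13b, Nfe2l2, P4ha3 and Anxa3, at 0.10, 0.10, 0.10, 0.11 and 0.11. Apbb1ip encodes RIAM, an adaptor that carries talin to integrins, and it was on the list of integrin activation genes, with a log2 fold change of 0.60 and an adjusted p of 0.0193 in edgeR. The distance includes the difference between the groups, so these genes are not independent of the comparison.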

How the data were processed

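RNA was taken from hippocampi of 5 void-treated and 5 DHT-treated P301S females, with a KAPA mRNA HyperPrep library from each. The deposited values are raw counts by gene without normalization, which the authors made with HTStream and STAR (2.7.10b in the submitters' processing notes). The paper names mm10 and those notes mm39, so no coordinates were taken from the counts. The annotation release, strand setting and handling of reads matching several genes are not given in the sources used here. Gene identifiers were matched to GENCODE M21 without versions, and 51948 of 56884 had a symbol.

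Groups came from the sample labels. Per the paper, treatment was randomized among littermates, and mice shared cages only with mice of the same treatment, so cage and treatment cannot be told apart. The labels do not give each mouse's litter or cage. No libraries within a group were identical (chi-square per degree of freedom 9.12 to 49.41). The counts were fitted with edgeR 4.0.16 in R 4.3.3 (TMM, filter by group, quasi-likelihood test, Benjamini-Hochberg over 17622 genes). Each standard error is the size of the log2 fold change over the root of F. Ratios used log2 CPM with a prior count of 2 and two-sided exact permutation tests over 252 arrangements in SciPy 1.17.1. Total counts of 27188854 to 47113661 leave genes under about 100 counts, such as Itgal, imprecise, and count ranges cover counting error only.

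All members, every other tested integrin chain, and at most 8 called ligands and 8 called adaptors of lowest p are named, with the 5 genes most like Itgam and Itgax. One of the adaptors so chosen is not reported here. Members and lists were chosen with earlier results of these data known. DESeq2 1.42.0, limma-voom 3.58.1, other scalings and filters, a choroid plexus covariate and leaving out each mouse were alternatives, and those for genes beyond the members were added after values were seen. The test code was tested on simulated data.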

Additional observations from a re-analysis of the deposited data

Results flagged for a closer look

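In 3 of 58 groups of values examined, 1 mouse stood apart from its group, in that the distance to the next mouse was over 0.71 of the whole range of the group. Chance flags about 1 in 20 groups, which gives about 2.9. All 3 concern DHT replicate 2 as the lowest DHT-treated mouse, with a gap of 0.76 of the range for Itga5 in CPM, 0.742 for the log2 ratio of Itga5 to Itgb1, and 0.741 for Itgax relative to microglia markers. The first 2 share the Itga5 counts of that mouse and are not independent.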

How the results depend on the processing

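No paired analysis was possible because the labels do not give each mouse's litter or cage. Itgax, Itgb2 and Itgb5 passed with DESeq2, limma-voom, DESeq2 size factors, library size alone, both filters and each of the 10 fits that left out 1 mouse. With the choroid plexus covariate 0 genes passed in either direction, so that 0 members, other integrin chains, ligands and adaptors were called, with or without the fold limit. That covariate differs between the groups, and the cause of its effect was not tested. DESeq2 called 224 genes lower against 46, and 0 other integrin chains passed with at least 10 counts in every library. With 1 mouse left out, the genes called higher ranged from 351 to 1072, lower from 5 to 77 and higher beyond the fold limit from 175 to 513. The members called higher ranged from 3 to 5, lower from 0 to 1 and beyond the fold limit from 1 to 2, other integrin chains from 0 to 3, ligands from 4 to 10 and adaptors from 6 to 17. The log2 ratio difference of Itga5 to Itgb1 ranged from 0.17 to 0.44 and of Itga5 to microglia markers from -0.192 to 0.0411. The sign reversed for Itgav, near 0, with DESeq2 (-0.0203), DESeq2 size factors in edgeR (-0.0199) and no filter beyond 1 count (-0.00506). With the covariate it reversed for Itga3 (0.34 to -0.0147), Itgb4 (0.31 to -0.198), Itga9 (0.13 to -0.0955) and Itga2b (0.28 to -0.115), none of them called, and the cause was not tested. With 1 mouse left out, Itgav ranged from -0.0565 to 0.0701, Itga1 from -0.0421 to 0.164 and Itga10 from -0.146 to 0.201. Of 170 values for the members under the alternatives, 153 kept direction and side of the limit, 5 newly passed, 3 no longer passed and 9, all of Itgav, changed sign. Itgal, Itgad, Itgae and Itgb6 are limited by depth, and the smallest exact p for 5 mice against 5 is 0.00794.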
